A study of Mus musculus with 6 samples.

Results

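The genes of homologous recombination and of the Fanconi anaemia pathway were followed after radiotherapy in SCC7, a squamous cell carcinoma line of the mouse. The group consists of 31 genes chosen by symbol and not by a threshold on expression, though earlier results of these data were known. All 31 were found among the 17030 genes of the deposited table. RNA was sequenced from 3 samples of irradiated SCC7 cells, treated at 9 Gy, and from 3 samples of SCC7 cells whose treatment label is none (the shared protocol text names the dose on all 6), all grown in high-glucose medium with serum. Day 0 is the time label of all 6, and how long after irradiation the cells were harvested is not stated. Nothing in the labels says that samples are independent cultures, so the p-values cover the spread between these samples only, which may be technical. Levels are FPKM, fragment numbers normalised for transcript length and for library size, so that levels of different genes can be compared.

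Homologous recombination repairs a double-strand break by copying the sister chromatid, and therefore works mainly in S and G2 phase. The break is recognised and its ends are trimmed to single strands, mediators then load the strand-exchange recombinase onto the single strand, and translocases help the filament to invade the intact copy. The Fanconi anaemia proteins detect crosslinks and stalled forks, attach ubiquitin to a clamp of FANCD2 and FANCI, and hand the opened crosslink to the recombination proteins. Many genes of both pathways are transcribed with the cell cycle, and the CCAAT box and the E2F site are elements known from promoters of that kind.

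Promoter windows of 300 bases, from 250 bases before to 50 bases after the start site, were taken from RefSeq (GRCm38.p6), and 23 of the 31 genes had at least 1. The CCAAT box (CCAAT on either strand) occurred in promoters of 16 of these 23 genes (69.6%), against 44.0% of 8952 tested genes with a window and 37.4% of all 32851 windows. An E2F site (TTTGGCGC, TTTCCCGC, TTTGCCGC or TTTCGCGC on either strand) occurred in promoters of 4 of the 23 genes (17.4%), namely Brca2, Rad51c, Fancg and Bard1, against 4.97% of the tested genes and 2.26% of all windows. The cell cycle homology region (TTTGAA or TTTAAA on either strand) occurred in 4 of the 23 (17.4%), against 22.4% of the tested genes and 27.6% of all windows. No motif contains another, and a match describes the sequence and not a bound site. The stretches below show the E2F match of Bard1 and the CCAAT match of genes from different steps of the pathway, 5′ to 3′ on the gene's strand, each outside any annotated RefSeq gene span. Capitals mark the match, and ATTGG is the CCAAT box read on the opposite strand.
Bard1, chr1:71103147-71103207, minus strand: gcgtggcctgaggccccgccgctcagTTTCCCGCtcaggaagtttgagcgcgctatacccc
Brca1, chr11:101552010-101552067, minus strand: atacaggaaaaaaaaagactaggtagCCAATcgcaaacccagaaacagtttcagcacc
Mre11a, chr9:14784590-14784647, plus strand: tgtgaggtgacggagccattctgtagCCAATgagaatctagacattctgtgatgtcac
Blm, chr7:80535153-80535210, minus strand: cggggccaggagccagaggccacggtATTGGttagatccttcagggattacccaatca
Rad54l, chr4:116123709-116123766, minus strand: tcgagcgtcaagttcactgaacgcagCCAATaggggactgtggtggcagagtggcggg
Brip1, chr11:86201229-86201286, minus strand: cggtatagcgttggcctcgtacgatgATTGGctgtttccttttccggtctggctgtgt
In Blm another CCAAT stands in lower case near the end of the stretch. Genes with the CCAAT box had fold changes of either sign: Blm averaged 7.01 FPKM in irradiated cells and 4.26 FPKM in controls, and Mre11a 7.72 FPKM in irradiated cells and 8.85 FPKM in controls.

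The control libraries were less alike than the irradiated libraries. Across the 11103 genes tested, Pearson correlations of log2(FPKM + 1) were 0.994 to 0.995 between irradiated libraries and 0.928 to 0.989 between controls. Control 3 correlated at 0.960 to 0.966 with irradiated libraries, and at 0.956 and 0.928 with controls 1 and 2. The sum of FPKM was 652691 to 663489 in irradiated libraries and 693961 to 982553 in controls and was lowest among controls in control 3. Read numbers are unknown. Of 14 genes known to respond to irradiation, 7 passed the test with higher values after irradiation and 0 with lower ones, where 9.24% and 2.77% of all genes did. Without control 1, control 2 or any 1 irradiated library, 3, 5 and 2 of the 14 were called higher, and 11 without control 3. Among the 7 was Mdm2, the ubiquitin ligase of p53, at 279 ± 13.4 FPKM in irradiated cells and 82.8 ± 2.69 FPKM in controls (SD, n = 3 each). Of 10 squamous or epithelial markers, 3 passed the filter on low values (Krt8, Krt18 and Jup), while Krt5, Krt14 and Trp63, which define squamous cells, stayed at or below 1.1 FPKM in every library. The list's summed FPKM was 499 to 509 in irradiated libraries and 714 to 1898 in controls, and Krt18 was called lower in irradiated cells (not without control 1 or 2, adjusted p = 0.125 and 0.0561, nor without any 1 irradiated library). Leukocyte markers summed to 25.0 to 26.9 FPKM in irradiated libraries and 17.1 to 22.2 FPKM in controls, nearly all of it from Cd14 and Cd68, with Ptprc at or below 0.03 FPKM. Endothelial markers summed to at most 0.64 FPKM in any library. Fibroblast markers summed to 168 to 193 FPKM in irradiated libraries and 111 to 212 FPKM in controls. Col1a1 and Dcn were called higher in irradiated cells. Pdgfra, Pdgfrb and Col1a2 were not called (log2 fold changes 0.17, -0.18 and 0.05), and Lum and Thy1 stayed at or below 0.04 FPKM. Dcn was not called without control 1 (adjusted p = 0.0650), and 0, 0 and 1 of the list were called higher without irradiated library 1, 2 and 3. The part of these differences in the results below was not tested.

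Without further normalization, the median fold change of the recombination and Fanconi anaemia genes was close to that of all genes tested. A smaller share of them was called. Rad50, the ATPase of the MRE11-RAD50-NBS1 break sensor, was the 1 gene of 31 called higher, and none was called lower. Rad50 averaged 17.03 FPKM in irradiated cells against 11.8 FPKM in controls, and 13 alternative settings lost its call. Fancm, Fancg and Blm had larger log2 fold changes than Rad50 but more variable controls, and did not pass the test. All 31 genes passed the filter of at least 1 FPKM in at least 3 samples and were tested with limma on log2(FPKM + 1), with p-values adjusted over all 11103 genes and a gene called below 0.05. The 1 gene called higher makes 3.23% of the group, against 9.24% of all genes tested called higher, and the 0 called lower stand against 2.77% of all genes. At an unadjusted p below 0.05, 9 genes (29.0%) were higher and 0 lower, against 27.2% and 11.1% of all genes. The irradiated libraries lay above every control for 10 genes (32.3%), against 31.8% of all genes, and below every control for 2 genes (6.45%), against 13.7%. The median log2 fold change of the group was 0.18, and that of all genes was 0.17. The split of all calls, 1026 higher and 308 lower, was 663 and 564 after quantile normalization and 711 and 445 after library scaling with a trimmed mean of log ratios (trimmed-mean scaling). The median of all genes was -0.01 and 0.03 on these scales, and that of the group -0.15 and 0.05. After quantile normalization 4 of the 31 were called, all lower, against 1227 of 11103 genes in either direction. In these bulk samples, a different share of cells in S or G2 phase and a different amount of RNA per cell cannot be told apart.

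**Figure D1:**
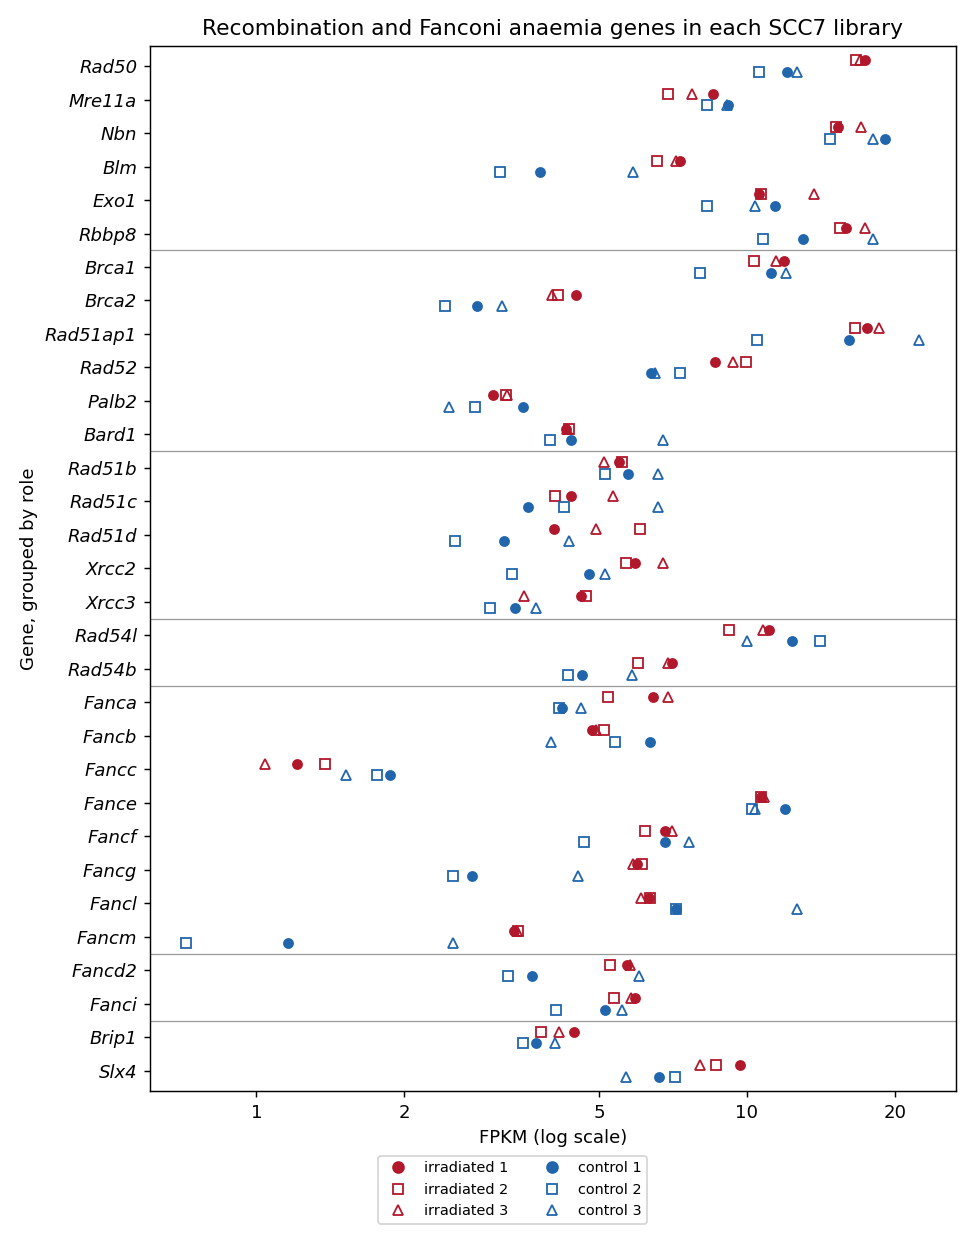
FPKM of each of the 31 genes (log axis) in the 3 irradiated libraries (red, upper row of each gene) and the 3 control libraries (blue, lower row), grouped by role with grey lines between roles. Rad50, Brca2, Rad52, Fanca, Fancg, Fancm, Blm, Slx4, Rad54b and Xrcc2 have every irradiated point right of every control point, and control 3 is the highest control for 21 of the 31 genes.

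The levels spanned 1.47 FPKM (Fancm) to 17.3 FPKM (Nbn) in control means, so no gene of the group was abundant. In irradiated libraries the summed FPKM of the 31 genes was 239, 229 and 244, and in controls 1, 2 and 3 it was 212, 182 and 239. The irradiated values lay above those of controls 1 and 2, and control 3 lay within the irradiated range. As a share of all FPKM of the library, the sum was 0.0366%, 0.0345% and 0.0370% in irradiated libraries, against 0.0241%, 0.0185% and 0.0344% in controls 1, 2 and 3, where control 3 lay just below the irradiated libraries. The plot of levels by sample shows this pattern gene by gene, and the plot of fold changes shows the size and interval of each difference.

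**Figure D2:**
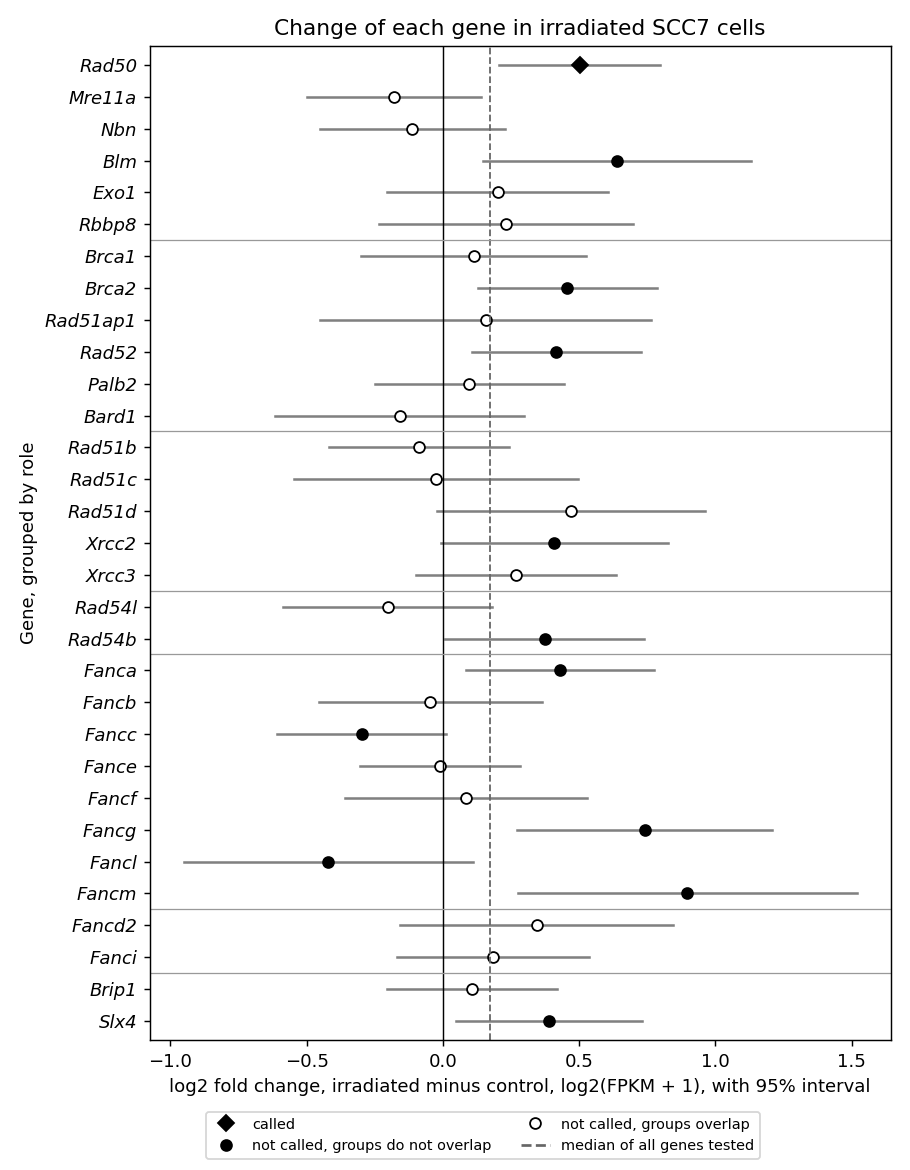
Log2 fold change of each gene, irradiated minus control, from log2(FPKM + 1), with its 95% interval from limma, grouped by role. The diamond marks the called gene, Rad50, filled circles mark genes whose groups do not overlap, and the dashed line at 0.17 is the median of all genes tested.

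Among genes of break sensing and end resection, Rad50 was called higher and its partners did not pass the test. Rad50 (NCBI gene 19360, chr11:53649519-53707319 in GRCm38.p6) measured 17.44, 16.69 and 16.97 FPKM in irradiated libraries, against 12.06, 10.56 and 12.64 FPKM in controls 1, 2 and 3. The groups did not overlap, and the irradiated libraries differed little among themselves. The log2 fold change was 0.50 (SE 0.12, limma adjusted p = 0.0469), close to the threshold. Without control 1 or 2 the adjusted p was 0.153 and 0.0846, and the call was lost, as it was without irradiated library 1, 2 or 3 (0.217, 0.209 and 0.183), while the log2 fold change stayed between 0.43 and 0.52 in these settings. After trimmed-mean scaling it was 0.35 (adjusted p = 0.0762) and after correction for transcript length and GC content 0.29 (adjusted p = 0.107). Over all alternatives, the adjusted p ranged from 0.00177 to 0.217.

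Mre11a, the nuclease of the same complex, measured 8.54, 6.89 and 7.73 FPKM in irradiated libraries, against 9.15, 8.30 and 9.09 FPKM in controls, and the groups overlapped. Its log2 fold change was -0.18 (SE 0.13, adjusted p = 0.342). Nbn, which encodes the NBS1 adaptor that recruits the ATM kinase, measured 15.9 ± 1.04 FPKM in irradiated cells and 17.3 ± 2.28 FPKM in controls (SD, n = 3 each), a log2 fold change of -0.11 with an interval of -0.45 to 0.23. The subunits of 1 complex therefore had fold changes of different sign, and those of Mre11a and Nbn had intervals that include 0.

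Blm, the helicase that works in end resection and in dissolving joined molecules, measured 7.31, 6.56 and 7.16 FPKM in irradiated libraries, against 3.78, 3.14 and 5.85 FPKM in controls 1, 2 and 3. The groups did not overlap, with control 3 nearer to them than the other controls were. The log2 fold change was 0.64 (SE 0.21, adjusted p = 0.0780). Exo1, the exonuclease of long resection, and Rbbp8, which encodes the CtIP cofactor of MRE11, measured 11.6 ± 1.76 and 16.2 ± 1.03 FPKM in irradiated cells, against 10.0 ± 1.59 and 14.0 ± 3.76 FPKM in controls. Their adjusted p-values were 0.395 and 0.392, and the groups overlapped for both.

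The 6 mediator genes held 2 with every irradiated library above every control, Brca2 and Rad52, and none was called. Of all genes tested, 31.8% lay above every control. Brca2, whose product loads the recombinase onto single-stranded DNA, measured 4.49, 4.12 and 4.0 FPKM in irradiated libraries, against 2.82, 2.42 and 3.16 FPKM in controls. The log2 fold change was 0.46 (SE 0.14, adjusted p = 0.0681), and after the length and GC correction it was 0.04. Brca2 has the longest transcript of the group, at 10724 bases. Rad52, a strand-annealing protein, measured 8.59, 9.95 and 9.35 FPKM in irradiated libraries, against 6.37, 7.30 and 6.48 FPKM in controls. Here control 3 lay with control 1, below all irradiated libraries, and the log2 fold change was 0.42 (SE 0.13, adjusted p = 0.0739).

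Brca1 and Bard1 encode partner subunits of a ubiquitin ligase that promotes recombination at the break. Brca1 measured 11.87, 10.34 and 11.44 FPKM in irradiated libraries, against 11.20, 8.02 and 12.03 FPKM in controls, and the irradiated range lay within that of the controls. The interval of its log2 fold change ran from -0.30 to 0.53. Bard1 measured 4.27, 4.33 and 4.29 FPKM in irradiated libraries, against 4.37, 3.97 and 6.74 FPKM in controls 1, 2 and 3. Control 3 alone stood clearly above the others, and the log2 fold change of -0.16 (adjusted p = 0.551) became 0.04 without it. Palb2, the bridge between BRCA1 and BRCA2, measured 3.17 ± 0.110 FPKM in irradiated cells and 2.92 ± 0.527 FPKM in controls. Rad51ap1, which stimulates strand invasion, had the highest mean level of the group in irradiated cells, at 17.53, 16.60 and 18.55 FPKM in irradiated libraries against 16.12, 10.49 and 22.41 FPKM in controls. Its controls spanned a wider range than the irradiated libraries on both sides.

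The paralogs of the recombinase (Rad51b, Rad51c, Rad51d, Xrcc2 and Xrcc3) form small complexes that stabilise its filament, and none of the 5 was called. Xrcc2 measured 5.91, 5.68 and 6.75 FPKM in irradiated libraries, against 4.77, 3.32 and 5.13 FPKM in controls, without overlap (log2 fold change 0.41, SE 0.18, adjusted p = 0.134). Rad51d measured 5.003 ± 0.998 FPKM in irradiated cells and 3.36 ± 0.905 FPKM in controls, and its log2 fold change of 0.47 had an interval of -0.02 to 0.96. Xrcc3 averaged 4.26 FPKM in irradiated cells and 3.36 FPKM in controls, and Rad51b 5.39 FPKM in irradiated cells and 5.81 FPKM in controls. Rad51c measured 4.38, 4.06 and 5.34 FPKM in irradiated libraries, against 3.58, 4.23 and 6.59 FPKM in controls, so its groups overlapped widely. The translocases differed in sign. Rad54b measured 7.02, 5.99 and 6.89 FPKM in irradiated libraries, against 4.60, 4.31 and 5.84 FPKM in controls (log2 fold change 0.37, adjusted p = 0.124). Its relative Rad54l measured 11.10, 9.20 and 10.76 FPKM in irradiated libraries, against 12.37, 14.06 and 10.00 FPKM in controls (-0.20, adjusted p = 0.368).

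The Fanconi anaemia core complex, the ubiquitin ligase that acts on FANCD2 and FANCI, held the highest and the lowest log2 fold change of the group when all controls were used, Fancm and Fancl, and none of its 8 genes was called. Against control 3 only, Slx4, Rad52, Rad50 and Fanca had higher log2 fold changes (0.55, 0.46, 0.40 and 0.36) than Fancg (0.336). Brca2 (0.322) lay between Fancg and Fancm (0.318). Fancm, which encodes the translocase that anchors the complex on DNA (NCBI gene 104806, chr12:65074110-65131842), measured 3.35, 3.41 and 3.40 FPKM in irradiated libraries, against 1.16, 0.72 and 2.52 FPKM in controls 1, 2 and 3. The irradiated libraries were nearly equal, and the controls lay far apart. The log2 fold change was 0.90 (SE 0.26, adjusted p = 0.0643). Fancg, an adaptor that binds FANCA (NCBI gene 60534, chr4:43002337-43010567), measured 5.97, 6.12 and 5.86 FPKM in irradiated libraries, against 2.75, 2.52 and 4.53 FPKM in controls. Its log2 fold change was 0.74 (SE 0.20, adjusted p = 0.0539), just short of a call. With a variance of its own for each group, Fancg and Fancm were called higher (adjusted p = 0.0391 and 0.0361) and Rad50 was not (0.0580).

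Fanca, the partner of Fancg, measured 6.42, 5.22 and 6.90 FPKM in irradiated libraries, against 4.20, 4.14 and 4.58 FPKM in controls, and the groups did not overlap (log2 fold change 0.43, adjusted p = 0.0848). The catalytic subunit gene Fancl (NCBI gene 67030, chr11:26387084-26471883) had a fold change of the other sign, with 6.31, 6.34 and 6.09 FPKM in irradiated libraries, against 7.17, 7.18 and 12.66 FPKM in controls 1, 2 and 3. All irradiated libraries lay below all controls, and control 3 was far above the rest. The log2 fold change was -0.42 (SE 0.22, adjusted p = 0.200), and -0.17 without control 3. Fancc, the gene with the lowest level in irradiated cells, measured 1.21, 1.38 and 1.04 FPKM in irradiated libraries, against 1.87, 1.76 and 1.52 FPKM in controls (log2 fold change -0.30, adjusted p = 0.139). Fancb, Fance and Fancf had overlapping groups, with log2 fold changes of -0.05, -0.01 and 0.08. Fance measured 10.7 ± 0.0889 FPKM in irradiated cells and 10.8 ± 0.937 FPKM in controls.

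Fancd2 and Fanci encode the clamp that receives ubiquitin. Fancd2 measured 5.70, 5.25 and 5.77 FPKM in irradiated libraries, against 3.64, 3.25 and 6.03 FPKM in controls 1, 2 and 3. Control 3 lay above all irradiated libraries and the other controls below them, and the log2 fold change was 0.34 (SE 0.21, adjusted p = 0.254). Fanci averaged 5.69 FPKM in irradiated cells and 4.92 FPKM in controls (log2 fold change 0.18, adjusted p = 0.374). Of the genes that act after the clamp, Slx4, the scaffold of the nucleases that unhook crosslinks, measured 9.69, 8.64 and 8.02 FPKM in irradiated libraries, against 6.61, 7.13 and 5.67 FPKM in controls. Its groups did not overlap, control 3 was the lowest library, and the log2 fold change was 0.39 (SE 0.14, adjusted p = 0.10). Brip1, a helicase that binds BRCA1, measured 4.12 ± 0.310 FPKM in irradiated cells and 3.76 ± 0.287 FPKM in controls.

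Ratios of related genes within a library do not depend on how the library was scaled, and 11 pairs were compared after their values were seen. The ratio of Rad50 to Mre11a was 2.04, 2.42 and 2.20 in irradiated libraries, against 1.32, 1.27 and 1.39 in controls. The ratio of Rad50 to Nbn was 1.14, 1.10 and 0.994 in irradiated libraries, against 0.631, 0.716 and 0.701 in controls. In both cases all irradiated libraries lay above all controls, control 3 included, and each group was narrow. The ratio of Nbn to Mre11a overlapped, at 2.07 ± 0.240 in irradiated cells and 1.95 ± 0.160 in controls (SD, n = 3 each). The ratio of Rad54b to Rad54l was 0.632, 0.651 and 0.640 in irradiated libraries, against 0.372, 0.307 and 0.584 in controls 1, 2 and 3, again without overlap but with control 3 close to the irradiated libraries. The other pairs overlapped too, as for Brca1 to Bard1 (2.61 ± 0.202 in irradiated cells and 2.12 ± 0.399 in controls) and Fancd2 to Fanci (0.980 ± 0.0135 in irradiated cells and 0.864 ± 0.197 in controls). A ratio does not remove differences tied to transcript length, which is 5153 bases for Rad50, 2533 for Nbn and 5660 for Mre11a. After the correction for length and GC content their log2 fold changes were 0.29, -0.09 and -0.42. How often ratios of other gene pairs separate the groups was not measured. No test was made on these ratios, since the pairs were chosen with the values known.

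**Figure D3:**
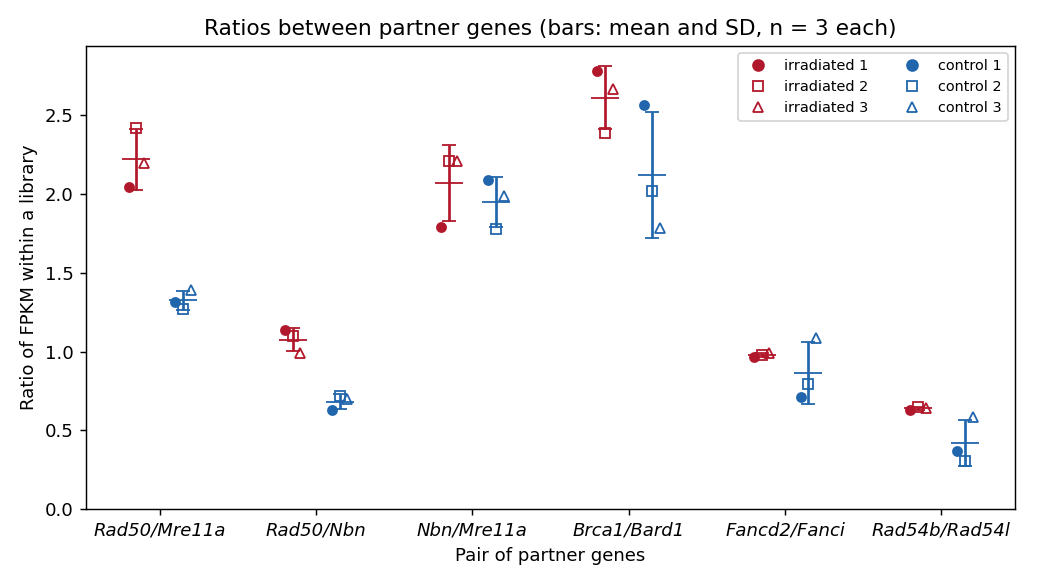
Ratio of FPKM between related genes within each library, for 6 of the 11 pairs, with irradiated libraries in red left of controls in blue. Bars give the mean and SD (n = 3 each). Rad50/Mre11a, Rad50/Nbn and Rad54b/Rad54l are separate between the groups, and the other 3 pairs overlap.

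Values of single genes depended on which control they were set against. On the log2(FPKM + 1) scale, the median SD of the 31 genes was 0.085 among irradiated libraries and 0.21 among controls. For all genes tested it was 0.082 and 0.30. The SD of the controls was the larger for 25 of the 31 genes (80.6%, against 89.8% of all genes tested). Control 3 was the highest control for 21 genes (67.7%, against 52.8% of all genes tested), and control 2 was the lowest of the 6 libraries for 21 genes (67.7%, against 44.8%). Against controls 1 and 2 only, 13 of the 31 genes were called higher (41.9%, against 45.8% of all genes) and 2 lower (6.45%, against 23.3%). Those 13 were Rad50, Fancg, Fanca, Rad54b, Rad51d, Rad52, Xrcc2, Fancm, Fancd2, Blm, Rbbp8, Brca2 and Slx4, and the 2 lower were Fancc and Rad54l. Against control 3 only, where control 3 is assumed to vary as the irradiated libraries do, 4 genes were called higher (12.9%, against 22.8%) and 4 lower (12.9%, against 14.4%). Higher were Rad50, Fancg, Rad52 and Slx4, and lower were Rad51ap1, Rad51c, Fancl and Bard1. The comparisons share the irradiated libraries. The log2 fold changes against controls 1 and 2 and against control 3 were 0.55 and 0.40 for Rad50, 0.94 and 0.34 for Fancg, 0.39 and 0.46 for Rad52, and 0.31 and 0.55 for Slx4. For Fancd2 they were 0.56 and -0.10, for Rbbp8 0.42 and -0.15, and for Rad51ap1 0.40 and -0.34. Rbbp8, for example, measured 15.90, 15.44 and 17.41 FPKM in irradiated libraries and 13.01, 10.77 and 18.11 FPKM in controls 1, 2 and 3.

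**Figure D4:**
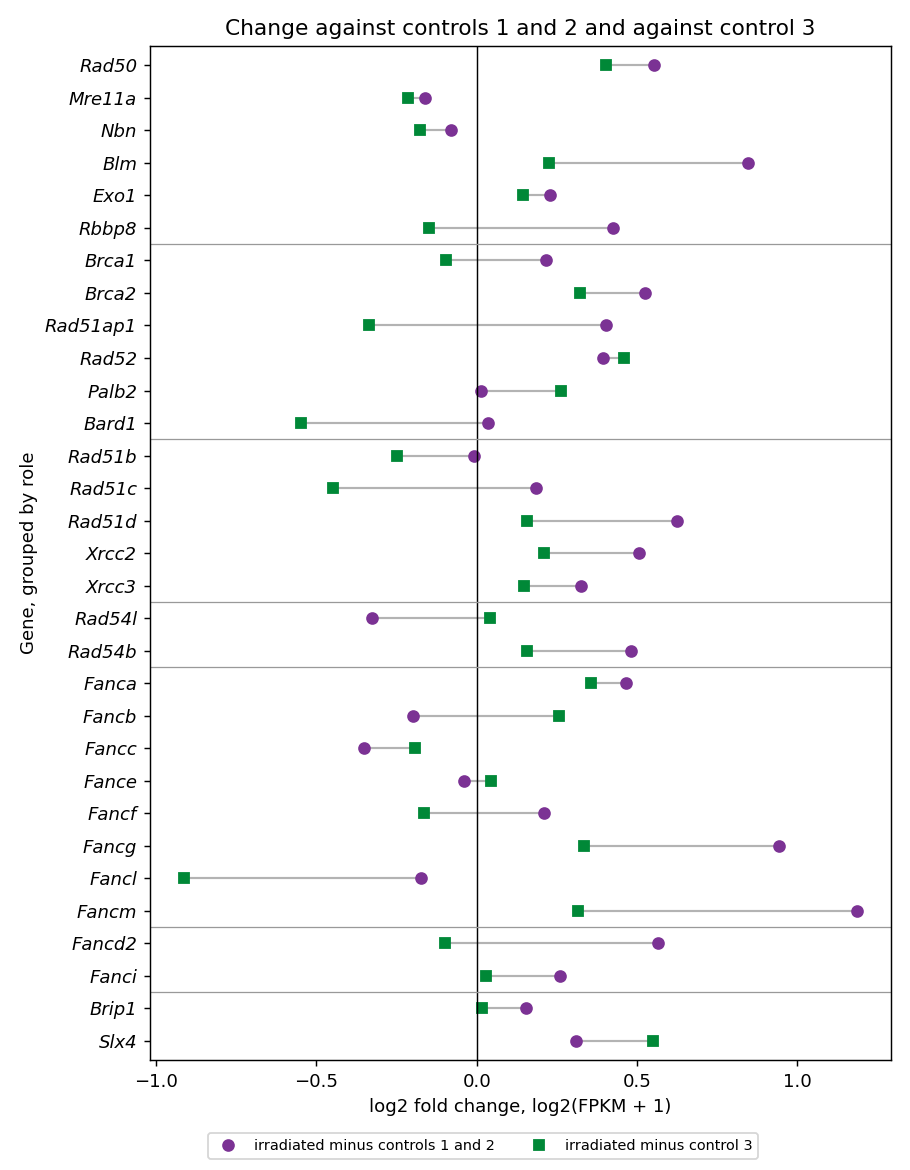
Log2 fold change of each gene when irradiated libraries are set against controls 1 and 2 (purple circles) and against control 3 (green squares), on the log2(FPKM + 1) scale. Fancg, Rad50, Rad52 and Slx4 are among the genes right of 0 in both, and Fancd2, Rbbp8 and Rad51ap1 among those on opposite sides of 0.

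Transcript length went with fold change in these libraries. Spearman's correlation of log2 fold change with the length of the longest annotated transcript was 0.41 across 10807 genes tested and 0.29 across the 31 genes, where genes share the same libraries and no p is given. After the correction for length and GC content, added after the data were seen, the median of the group was 0.04 and that of all genes 0.15, and Fancg was the only one of the 31 called (log2 fold change 0.80, adjusted p = 0.0466). Several genes of the group overlap other expressed genes in RefSeq, and the sources used here do not state whether strand was used in counting. Fanca overlaps Zfp276 (4.46 FPKM in irradiated cells and 3.41 FPKM in controls), Fancl overlaps Vrk2 (9.62 FPKM in irradiated cells and 9.69 FPKM in controls), and Xrcc3 overlaps Klc1 (82.1 FPKM in irradiated cells and 74.5 FPKM in controls). Rad54l overlaps Lrrc41, Fancb overlaps Mospd2, Fancc overlaps Aopep, Fancf overlaps Gas2 and Fanci overlaps Polg. Rad54b and Fancd2 overlap genes at or below 1.14 FPKM in every library. Rad50, Fancg, Fancm, Rad52 and Slx4 overlap no annotated gene, and Brca2 and Blm only non-coding genes or pseudogenes that have no row in the table.

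Other genes of the pathway were called in both directions. Of 51 further genes listed, 48 were in the table and all 48 were tested, with 1 called higher (2.08%, against 9.24% of all genes) and 3 lower (6.25%, against 2.77%). The irradiated libraries lay above every control for 12 of the 48 (25%, against 31.8% of all genes). They lay below every control for 11 (22.9%, against 13.7%). Their log2 fold changes had a median of -0.05 (all genes 0.17), and of 0.06 against control 3 only (all genes 0.07). Samhd1, a dNTP hydrolase that also aids end resection, rose to 45.57, 52.19 and 45.38 FPKM in irradiated libraries, against 24.81, 25.05 and 33.79 FPKM in controls (log2 fold change 0.77, SE 0.16, adjusted p = 0.0327). Samhd1 is also known as an interferon-stimulated gene. Mnd1, a cofactor of meiotic strand exchange, fell to 19.75, 18.13 and 21.65 FPKM in irradiated libraries, against 47.56, 47.71 and 31.22 FPKM in controls (-1.03, SE 0.19, adjusted p = 0.0264). Babam2, a subunit of a deubiquitinating complex bound to BRCA1, fell to 44.46, 44.35 and 45.60 FPKM in irradiated libraries, against 69.04, 93.04 and 68.68 FPKM in controls (-0.75, SE 0.15, adjusted p = 0.0315). Sem1, a small protein that binds BRCA2 and is also a subunit of the proteasome, fell to 219.55, 226.63 and 240.78 FPKM in irradiated libraries, against 496.31, 726.09 and 350.57 FPKM in controls (-1.13, SE 0.26, adjusted p = 0.0427). None of the 4 had overlapping groups, and against control 3 only their log2 fold changes were 0.48, -0.63, -0.61 and -0.61, in the order given. Without control 1 the adjusted p was 0.142, 0.125, 0.104 and 0.156, and without 1 irradiated library it was 0.131 to 0.203, so that all 4 calls were lost. Those of Samhd1, Mnd1 and Sem1 were also lost without control 2 (0.0716, 0.0612 and 0.0586).

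The next genes by p missed the threshold. Rpa2, a subunit of the single-strand binding protein RPA, averaged 21.7 ± 1.30 FPKM in irradiated cells and 46.0 ± 15.3 FPKM in controls (-0.995, adjusted p = 0.0512). Cenps, a histone-fold partner of FANCM, averaged 7.06 ± 0.545 FPKM in irradiated cells and 19.96 ± 8.77 FPKM in controls (-1.27, adjusted p = 0.0542). Its fold change was opposite in sign to that of Fancm. Recql, a helicase, averaged 6.57 FPKM in irradiated cells and 4.25 FPKM in controls, and the helicase gene Wrn 3.74 FPKM in irradiated cells and 1.83 FPKM in controls (adjusted p = 0.0512 and 0.0740). The nuclease gene Mus81 averaged 7.55 FPKM in irradiated cells and 10.7 FPKM in controls, and Faap20, which binds FANCA, 14.6 FPKM in irradiated cells and 25.5 FPKM in controls (0.0561 and 0.0860).

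**Figure D5:**
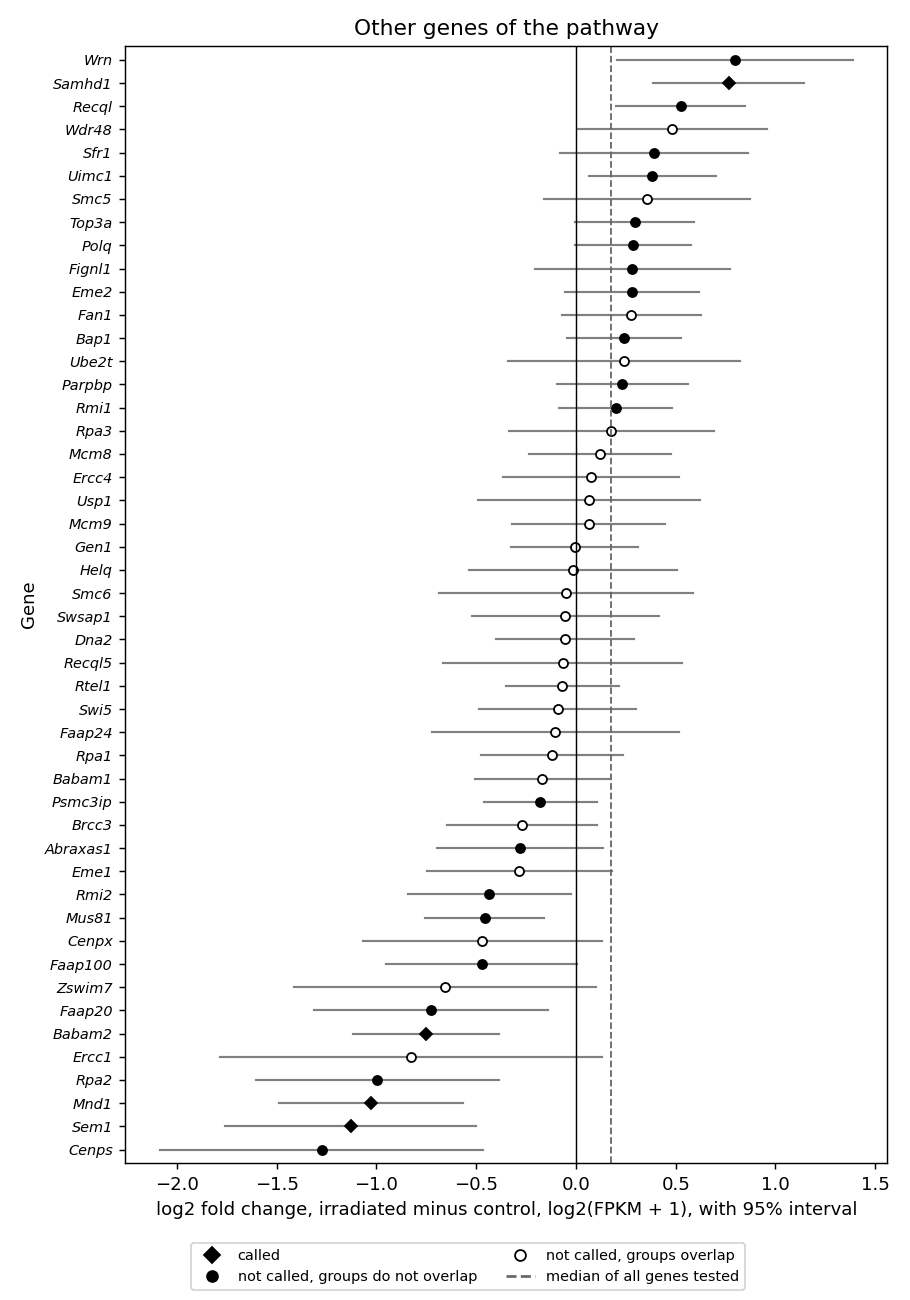
Log2 fold change, irradiated minus control, from log2(FPKM + 1), with 95% interval for 48 other genes of the pathway, sorted by value. Diamonds mark the 4 called genes, filled circles genes whose groups do not overlap, and the dashed line at 0.17 the median of all genes tested.

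Cell cycle genes were measured in the same libraries, and the order of their medians and that of the recombination and Fanconi anaemia genes depended on the scaling. Of 28 S phase genes, 0 were called higher (against 9.24% of all genes) and 2 lower (7.14%, against 2.77%). The 2 were Ung and Tk1, and the median log2 fold change of the list was -0.24. At an unadjusted limma p below 0.05, 2 S phase genes were higher (7.14%, against 27.2% of all genes) and 10 lower (35.7%, against 11.1%). Ung, the uracil glycosylase of replication, averaged 3.00 ± 0.257 FPKM in irradiated cells and 6.62 ± 1.02 FPKM in controls (-0.92, adjusted p = 0.0180), and Tk1, the thymidine kinase of S phase, 63.5 ± 2.89 FPKM in irradiated cells and 145 ± 47.4 FPKM in controls (-1.11, adjusted p = 0.0437). Without control 1, the adjusted p of Ung and Tk1 was 0.0902 and 0.163, and without control 2 that of Tk1 was 0.0934, which lost these calls. Neither was called without any 1 irradiated library. Of 28 genes of G2 and mitosis none was called by limma (9.24% higher and 2.77% lower among all genes), and the median was -0.15. At an unadjusted p below 0.05, 1 was higher (3.57%, against 27.2% of all genes) and 4 lower (14.3%, against 11.1%). The medians of the 31 recombination and Fanconi anaemia genes, of the S phase list and of the G2 and mitosis list were 0.18, -0.24 and -0.15 with all controls. They were 0.05, -0.10 and -0.12 against control 3 only, and 0.05, -0.40 and -0.31 after trimmed-mean scaling. After quantile normalization they were -0.15, -0.20 and -0.08, with the G2 and mitosis list highest. The difference between these lists was not tested.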

How the data were processed

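The authors deposited 1 table of FPKM values (rounded to 2 decimals) for 17030 genes in 6 SCC7 samples, per the file headers. HISAT and the build GRCm38.p6 are named in the submitters' processing notes. The sources used here give no counting tool, annotation, strand setting or read numbers, so depth is unknown. Total RNA was depleted of ribosomal RNA, per the labels' protocols.

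The 11103 genes that reached 1 FPKM in 3 or more samples were tested on log2(FPKM + 1), a scale that understates changes of low genes, with limma 3.58.1 in R 4.3.3 (2 groups, no covariate, eBayes with trend and robust options, Benjamini-Hochberg adjustment over all genes tested). The procedure was tested on simulated data with independent noise of equal spread in both groups. That simulation does not cover the wider spread of these controls or a library that stands apart. Coordinates came from RefSeq and transcript lengths from GENCODE, both of GRCm38. The 31 genes, the other lists and the alternatives were chosen with earlier results of these data known. Every one of the 31 is named, with the called genes and the next 6 by p among other pathway genes and up to 2 genes of the cell cycle lists.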

Additional observations from a re-analysis of the deposited data

How the results depend on the processing

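The number of calls rested on the libraries included and on the fit. Among the 31 recombination and Fanconi anaemia genes, limma called 1 in the comparison reported, 4 after quantile normalization (all lower: Rad51b, Fancc, Fancl and Bard1), 2 without trend and robust options (Rad50 and Fancg) and 2 with group weights. Of all 11103 genes, limma called 1227 after quantile normalization (663 higher and 564 lower), 1535 without trend and robust options and 1825 with group weights. None of the 31 was called after trimmed-mean scaling, without a filter, with a filter at 5 FPKM, with a pseudocount of 0.1 or with the replicate block. In these settings 8, 10, 6, 9 and 5 had an unadjusted p below 0.05, of 31 tested (22 with the filter at 5 FPKM). Of all genes, 4124 of 11103, 5344 of 17030, 3261 of 8889, 4199 of 11103 and 3663 of 11103 did, in the same order. Leaving out 1 library gave 0 to 15 calls, 15 without control 3, and control 3 as the only control gave 8. Of all genes, 1334 were called, 727 with the filter at 5 FPKM, 300 with the replicate block, 4093 with control 3 only, and 56 (without irradiated library 1) to 7638 (without control 3) with 1 library left out. Of the other pathway genes, 4 were called, 7 after quantile normalization, 0 with the replicate block (10 with an unadjusted p below 0.05), 17 with control 3 only, and 0 to 29 with 1 library left out. Same-numbered samples did not deviate together (correlations -0.11, 0.02 and -0.16), and control 1 with irradiated sample 3 reached 0.26. With 3 samples a group and control 3 apart, these correlations cannot exclude pairing. The reason for the calls lost under the block was not tested. Fewer samples remain where a library is left out. For the other settings the cause was not tested. The corrections for length and GC content were chosen after seeing the data.

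Of 487 values of the 31 genes under alternative settings, 410 kept their sign and their side of the threshold. With the sign kept, 28 gained a call and 13 lost one (all of Rad50). The other 36 changed sign, all of genes not called in the comparison reported. In some settings the log2 fold change equals that of the comparison reported, so its sign could not change. These are no filter, the filter at 5 FPKM, no trend or robust options, group weights and the replicate block. Sign changes are counted whether or not a call came with them, as for Rad51ap1 against control 3 only (-0.34). Sign changes after quantile normalization were Brca1 -0.17, Rad51ap1 -0.056, Rad54b -0.013, Xrcc3 -0.15, Fancd2 -0.050, Fancf -0.29, Fanci -0.21, Palb2 -0.34, Exo1 -0.081 and Brip1 -0.31 (log2 fold changes). After trimmed-mean scaling they were Brca1 -0.034, Fancf -0.054, Palb2 -0.027 and Brip1 -0.022. After the length and GC correction they were Brca1 -0.16, Fance 0.26, Palb2 -0.0045, Exo1 -0.11, Brip1 -0.23 and Rbbp8 -0.031. With control 3 only they were Brca1 -0.10, Rad51ap1 -0.34, Rad54l 0.042, Fancb 0.26, Fancd2 -0.10, Fance 0.046, Fancf -0.17 and Rbbp8 -0.15. With 1 library left out, the log2 fold change ranged from -0.048 to 0.22 for Brca1, -0.18 to 0.19 for Rad51c, -0.11 to 0.40 for Rad51ap1, -0.20 to 0.080 for Fancb, -0.047 to 0.053 for Fance, -0.093 to 0.21 for Fancf and -0.28 to 0.036 for Bard1.

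The main limits are 3 samples a group, an unknown read depth, levels below 20 FPKM for most of the genes, a wider spread among controls than the equal-variance fit assumes, and a control 3 that stands apart for reasons the labels do not give.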
